A study of Rousettus aegyptiacus with 32 samples.

Results

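Striatum-only regions are stretches of open chromatin that were strong in every striatal library of the Egyptian fruit bat, Rousettus aegyptiacus, and had no peak in its cortex or cerebellum. They were chosen from the deposited ATAC-seq peak lists, in which a transposase marks DNA that is free enough to be cut. In each list the 50000 intervals with the highest -log10 p of the peak caller were called strong, the strong intervals of the 4 striatal libraries were merged, and a region was kept if it overlapped a strong interval in all 4 and no deposited interval of any strength in the 8 cortical and 2 cerebellar libraries. This left 2806 regions, among 37010 regions strong in all 4 striatal libraries and 230769 regions formed by merging the strong intervals of all 20 libraries. Strength in the striatum and absence from the other brain lists are therefore the choice itself and are given here as description.

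The striatum groups were caudate nucleus and putamen. They were set against secondary auditory cortex (2A), the orofacial (ofM1) and wing (wM1) parts of primary motor cortex, premotor cortex (PreM) and cerebellum, and described in liver, pectoralis muscle and testis. Each tissue was sampled once from each of 2 adult males, bats 1 and 3, with no treatment named in the labels, and every library is bulk tissue, so fewer cells of a type and weaker opening per cell cannot be told apart. RNA from cortex and striatum came from other animals, bats 6 and 7, and its 12 libraries were not analysed here, since their features carry no position.

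The striatum is the input station of the basal ganglia. Most of its neurons are inhibitory projection neurons that receive glutamate from cortex and dopamine from the midbrain and that carry either D1-type or D2-type dopamine receptors. Caudate and putamen are its dorsal divisions. In primates caudate is tied more to associative circuits and putamen more to sensorimotor ones. Open regions found in 1 brain division and not in others are often distal enhancers, whose sequence is read by the transcription factors of particular cell types. Which genes lie at these regions was not analysed here, because the gene table used gives no scaffold for any gene, so the dissections could not be set against marker genes.

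The lists of liver of bat 1, muscle of bat 1 and putamen of bat 3 stood apart in ways that bear on what follows. Liver of bat 1 had the weakest strong peaks, with a median of 2.23-fold enrichment, where the 20 libraries ran from there up to 12.8-fold. Muscle of bat 1 held far more striatum-only regions than the other peripheral lists. Putamen of bat 3 was the weakest of the 4 striatal libraries by rank at 1805 of the 2806 regions, or 64.3%. It was not so by median rank at the other 34204 regions strong in all 4 striatal libraries. Its median rank there was 17728, ahead of 18277 to 18638 in the other 3, where rank 1 is the strongest interval. Regions strong in all 8 cortical lists, with none in cerebellum or in the other 3 striatal lists, had an interval in putamen of bat 3 in 3.27% of 735 cases. For the other 3 striatal libraries that share was 2.87 to 6.45%. No list carries a read depth, so the depth behind a peak is unknown. The lists held 155151 to 238945 intervals, and the 10 cortical and cerebellar lists stopped at a -log10 p of 3.3 to 8.64, so a region without an interval there may still be weakly open.

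Striatum-only regions were of moderate strength within the striatum and seldom among its strongest. They made up 7.58% of the 37010 regions strong in all 4 striatal libraries. Ordering those regions by their weakest rank over the 4 libraries, where rank 1 is the strongest interval of a list, 64 of 6827 regions within rank 10000 were striatum-only, or 0.937%. The share was 4.84% of 7194 at ranks 10001 to 20000, 8.64% of 7474 at ranks 20001 to 30000, 10.3% of 7690 at ranks 30001 to 40000 and 12.2% of 7825 at ranks 40001 to 50000. The strongest striatal regions were thus nearly all listed elsewhere in the brain too.

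**Figure D1:**
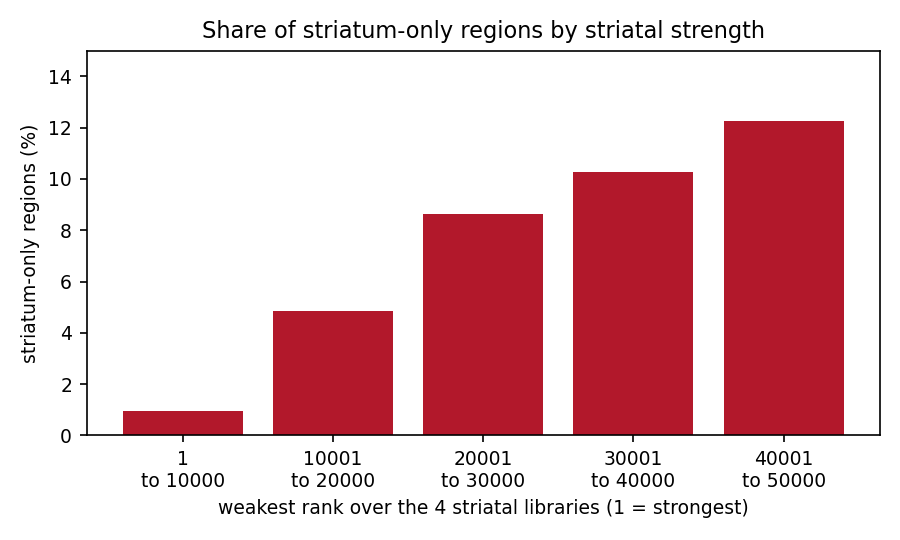
Percent of the regions strong in all 4 striatal libraries that were striatum-only (y axis), by the weakest rank over the 4 libraries in steps of 10000 (x axis). The share goes up with every step, with 0.937% among the strongest and 12.2% among the weakest.

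The size of the enrichment was close to that of other striatal regions in 3 of the libraries and lower in the other. The median fold over the caller's background was 13.0 at striatum-only regions in caudate of bat 1, against 13.0 at the other 34204 striatal regions. It was 13.8 in caudate of bat 3, against 13.9 at the others, and 12.6 in putamen of bat 1, against 13.3. In putamen of bat 3 it was 9.07, against 10.8. From the lower to the upper quartile, striatum-only regions had folds of 10.4 to 16.0 in caudate of bat 1, 10.9 to 17.1 in caudate of bat 3, 10.2 to 15.4 in putamen of bat 1 and 7.59 to 10.97 in putamen of bat 3. These folds are the authors' own values, with no scaling between lists.

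**Figure D2:**
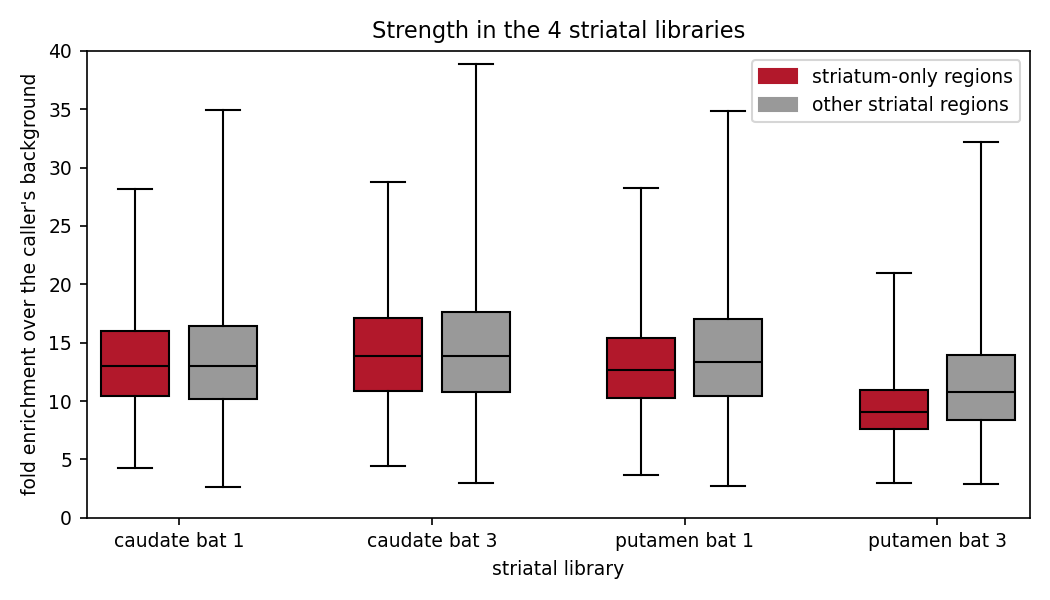
Fold enrichment (y axis) of striatum-only regions (red) and of the other regions strong in all 4 striatal libraries (grey) in each striatal library (x axis). Boxes span the quartiles, the line is the median and whiskers reach the lowest and highest region, and the medians lie close together except in putamen of bat 3 (9.07 against 10.8).

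The regions were narrower at the median than the other striatal regions. Their median width was 990 bases, with quartiles of 821 and 1177 bases and a range of 236 to 2202. It was 1144 bases for the other striatal regions. Regions strong in all 8 cortical lists alone had a median of 1064 bases and those strong in both cerebellar lists alone 833. A region joins the intervals of all its lists, so widths from 4, 8 and 2 lists are not like for like. Together the striatum-only regions covered 2.85 Mb. The caller placed a single summit in each of the 4 libraries at 595 of the 2806 regions, or 21.2%, against 11.3% of the other striatal regions. Summits fell in nearly the same place in every library: the median distance between the main summits of any 2 of the 4 libraries was 5 to 9 bases, and 96.0 to 98.1% of the regions had them within 50 bases, against 94.6 to 96.7% of the other regions. Within a region the highest of the 4 folds was a median of 1.55 times the lowest, against 1.34 times at the other regions, and exceeded it by more than 3 times at 4 regions.

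The region with the best weakest rank lay on scaffold NW_023416295.1, bases 16224513 to 16225896. Its ranks were 2440 and 1392 in caudate of bats 1 and 3 and 3128 and 2442 in putamen of bats 1 and 3. The next, on NW_023416284.1, bases 58416573 to 58417719, had ranks of 2084 and 2306 in caudate and 1744 and 4004 in putamen. Another, on NW_023416286.1, bases 23240811 to 23241989, was enriched 20.2- and 19.5-fold in caudate of bats 1 and 3 and 20.04- and 17.0-fold in putamen. Caudate ranks lay ahead of putamen ranks without overlap at the first of these regions, narrowly, and the divisions overlapped at the other two.

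Of the same 10 strongest regions, the fourth lay on NW_023416311.1 (93526125 to 93527307) with 15.3- and 16.9-fold in caudate of bats 1 and 3 and 16.6- and 12.9-fold in putamen. The fifth lay on NW_023416284.1 (39229240 to 39230112), with 21.1- and 23.5-fold in caudate and 22.3- and 17.1-fold in putamen. The sixth, on NW_023416306.1 (121360686 to 121361999), was the least enriched of the 10, with 12.6- and 13.2-fold in caudate and 12.2- and 10.5-fold in putamen. In all 10 of them the lowest fold was that of putamen of bat 3.

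The seventh and ninth were on NW_023416295.1, at bases 77348750 to 77350289 and 157619485 to 157620724, and the eighth on NW_023416308.1 at bases 92290992 to 92292041. That eighth region ranked 1541 and 1445 in caudate of bats 1 and 3, ahead of 2501 and 6008 in putamen. The tenth lay on NW_023416306.1, bases 161787530 to 161788470, had 1 summit in every library and reached the highest fold of the 10, 24.2 in caudate of bat 3. Widths over the 10 ran from 873 to 1540 bases and their folds from 10.5 to 24.2.

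At the other end, the weakest member lay on NW_023416308.1, bases 25783594 to 25784947, with ranks of 40810 and 42648 in caudate of bats 1 and 3 and 46133 and 50000 in putamen. Just outside the limit, a region on NW_023416289.1, bases 49637849 to 49638680, ranked 29235 and 43227 in caudate and 39359 and 50014 in putamen. Their folds in putamen of bat 3, 7.04 and 6.43, show how little separates a member from its nearest neighbour outside. With no interval in cortex or cerebellum, a further 1265 regions were strong in 3 of the 4 striatal lists. In 879 of these, or 69.5%, the missing list was putamen of bat 3.

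The limit on the other brain lists mattered too: counting only a strong interval there as present gave 8543 regions, against 2806. Of the 37010 regions strong in all 4 striatal libraries, 24444, or 66.0%, had an interval in all 10 cortical and cerebellar lists, and 928, or 2.51%, in exactly 1. Between 394 and 840 regions had an interval in each number from 2 to 7 of the lists, 3663 in 8 and 1992 in 9. Both ends were thus more filled than the middle. Requiring no cortical interval alone left 3678 regions. Of these, 872 had an interval in cerebellum and so were dropped, 431 of them in both animals. The nearest deposited cortical or cerebellar interval lay a median of 1577 bases from the edge of a striatum-only region, with quartiles of 710 and 3274 bases. It was within 500 bases at 479 regions and over 10000 bases away at 113.

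Most regions found in 1 animal met the rule in the other as well. The rule run on bat 1 alone gave 4681 striatum-only regions, which were looked up in the lists of bat 3. They were strong in both striatal lists of bat 3 in 70.9% of cases, against 90.2% of the other regions strong in both striatal lists of bat 1. They had no interval in any of the 5 cortical and cerebellar lists of bat 3 in 86.6% of cases, against 2.95% of the others. In the other direction, bat 3 alone gave 4175 regions, of which 88.1% were strong in both striatal lists of bat 1, against 91.2% of the others, and 78.8% had no cortical or cerebellar interval there, against 1.51%. Both conditions together held for 60.8% of the regions found in bat 1 and 69.0% of those found in bat 3. These shares come from 1 lookup in each direction and were not tested.

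Leaving out striatal libraries 1 at a time showed where the choice is least sure. Regions strong in the other 3 lists and absent from cortex and cerebellum were strong in the list left out in 95.7% of 2983 cases for caudate of bat 1, 97.5% of 2884 for caudate of bat 3 and 93.8% of 2999 for putamen of bat 1. For putamen of bat 3 it was 76.4% of 3717. Regions that did have a cortical or cerebellar interval were strong in the list left out in 96.95% of cases for caudate of bat 1, 96.7% for caudate of bat 3, 95.8% for putamen of bat 1 and 94.6% for putamen of bat 3. The gap between striatum-only and shared regions was thus widest in putamen of bat 3. Every region left out as strong still had a deposited interval of lower rank in the list concerned.

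Caudate ranked striatum-only regions higher than putamen did. The median rank was 22238 and 20950 in caudate of bats 1 and 3 and 23543 and 31384 in putamen of bats 1 and 3. Both caudate libraries ranked a region ahead of both putamen libraries at 1208 regions, or 43.1%, where 23.5% of all 37010 regions strong in the striatum did so. The converse held for 222 regions, or 7.91%, where 25.1% of all did. The mean of the library medians was 21594 ± 911 in caudate and 27463 ± 5544 in putamen (SD, n = 2 each), a difference of -5869. These ranks were used in choosing the regions, so the difference is a description and carries no test.

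The lean to caudate was present in both animals but of unequal size. In bat 1 the caudate rank was ahead of the putamen rank at 1583 of the 2806 regions, or 56.4%, against 49.97% of the other striatal regions. In bat 3 it was ahead at 2338, or 83.3%, against 45.1% of the others. The median difference in rank within an animal, caudate minus putamen, was -1109 in bat 1 and -8131 in bat 3, where at the other regions it was 1 and 489. Leaving out putamen of bat 3 also changed the set, to 3717 striatum-only regions defined from the 3 other striatal lists. Of these, 50.7% ranked higher in both caudate libraries than in putamen of bat 1. The share was 40.0% of all regions strong in those 3 lists, so the excess was 10.7 percentage points. Putamen of bat 1 ranked ahead of both caudate libraries at 28.3% of the 3717, against 37.3% of all. With both putamen libraries the excess was 19.6 percentage points, and putamen was ahead at 7.91%, against 25.1% of all. Either order is met more easily with fewer libraries, so the values with and without putamen of bat 3 are not like for like. The part of putamen of bat 3 in the lean to caudate was not tested further.

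**Figure D3:**
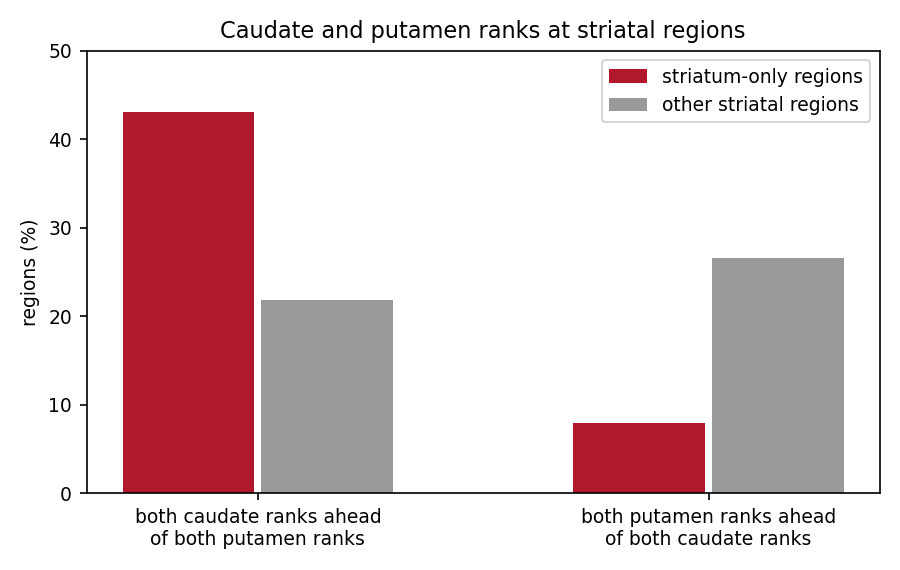
Percent of striatum-only regions (red) and of the other striatal regions (grey) where both libraries of 1 division ranked ahead of both of the other (x axis: caudate ahead, putamen ahead). Caudate led at 43.1% of striatum-only regions and putamen at 7.91%, while the other regions were near balance at 21.9% and 26.6%.

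Single regions show how far the divisions can part, the examples being those with the widest gap in rank, chosen after the values were seen. On NW_023416308.1, bases 65185351 to 65186439, ranks were 18940 and 14735 in caudate of bats 1 and 3 and 48834 and 49752 in putamen, with 18.3- and 21.3-fold in caudate and 10.03- and 8.07-fold in putamen. A second such region lay on the same scaffold at bases 72862456 to 72863548, with 20.6-fold in both caudate libraries and 10.3- and 8.26-fold in putamen. In the opposite direction, a region on NW_023416290.1, bases 10903364 to 10904168, had 11.5- and 11.4-fold in caudate of bats 1 and 3 and 19.1- and 13.9-fold in putamen. Another, on NW_023416310.1 at bases 21356712 to 21358222, had 12.2- and 11.5-fold in caudate and 18.5- and 13.1-fold in putamen. All 4 were open in both divisions, and the divisions did not overlap in rank at any of them.

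The regions were spread over the scaffolds, and they neighboured each other more often than their share of striatal regions. They occurred on 19 of the 24 scaffolds that held strong striatal regions, and on the 18 scaffolds with at least 100 such regions they made up 6.03 to 9.95% of them. After a striatum-only region, the next strong striatal region along the scaffold was also striatum-only in 367 of 2806 cases, or 13.1%, against 7.58% of all. Runs of 2 or more in a row took in 683 regions in 316 runs. The longest run had 5 regions over 381 kb of NW_023416310.1, bases 54033415 to 54414711. A run of 4 over 56.2 kb lay on NW_023416286.1, bases 75508119 to 75564364, and another of 4 over 68.6 kb on NW_023416287.1, bases 79487728 to 79556312. The median gap between neighbours was 333 kb, and 81 gaps were of at most 10 kb.

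Per stretch of 1 Mb, 1269 of 1891 stretches with a strong striatal region held at least 1 striatum-only region, and 11 held 8 or more. The fullest, from 79 to 80 Mb of NW_023416287.1, held 10 among 28 strong striatal regions. From 158 to 160 Mb of NW_023416306.1, neighbouring stretches held 9 of 26 and 8 of 17. That last share, 47.1%, was the highest among the 11 stretches, and the genes there were not analysed here.

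Liver, muscle and testis had no part in the choice. Most striatum-only regions were absent from them or present weakly: 1076, or 38.3%, had no interval in any of the 6 peripheral lists, 897 had one in a single list and 2 in all 6. Among the other striatal regions 6.80% had none and 25.1% had one in all 6. The peripheral lists went down to a -log10 p of 2.00 to 2.80, below the 3.3 to 8.64 where the cortical and cerebellar lists stopped. A peripheral interval therefore does not show that a region was more open there than in cortex or cerebellum. The regions' share with an interval, which is a count over regions and not over animals, is given for each library with an exact (Clopper-Pearson) 95% interval.

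In muscle of bat 1, 1096 striatum-only regions had an interval, or 39.1% (37.2 to 40.9%), where 78.4% of all regions strong in the striatum did. In muscle of bat 3 it was 284, or 10.1% (9.03 to 11.3%), where 64.1% of all did. The muscles of the 2 animals thus lay further apart at striatum-only regions than over all striatal regions. Regions seen in muscle of bat 3 were also in muscle of bat 1 in 53.2% of cases, against 92.9% at the other striatal regions, and the converse held in 13.8%, against 78.1%.

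In testis of bat 1, 530 regions had an interval, or 18.9% (17.5 to 20.4%), where 65.6% of all did. In testis of bat 3 it was 316, or 11.3% (10.1 to 12.5%), where 59.3% of all did. Liver of bat 1 held 483, or 17.2% (15.8 to 18.7%), where 36% of all did. Liver of bat 3 held 298, or 10.6% (9.50 to 11.8%), where 54.9% of all did. In each of the 3 tissues the share was higher in bat 1 than in bat 3, while for all striatal regions liver went the other way.

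Strong peripheral intervals, those among the 50000 strongest of their list, were rarer still. The weakest of these had a -log10 p of 4.23 to 9.09 in the peripheral lists, against 51.1 to 196 in the striatal lists. Strong therefore meant a lower -log10 p in the periphery. They were found at 282 striatum-only regions in muscle of bat 1, or 10.05%, where 59.1% of all striatal regions had one, and at 57, or 2.03%, in muscle of bat 3, where 50.4% did. The testes had 56, or 2.00%, in bat 1, where 46.6% of all did, and 36, or 1.28%, in bat 3, where 42.2% did. The livers had 111, or 3.96%, in bat 1, where 18.4% of all did, and 38, or 1.35%, in bat 3, where 41% did. A strong interval in both animals was found at 22 regions for muscle, or 0.784%, against 50.4% of the other striatal regions. It was found at 12 regions for testis, or 0.428%, against 41.8%, and at 2 for liver, or 0.0713%, against 15.7%.

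Set against other regions in the same peripheral lists, striatum-only regions were listed less often than the other striatal regions in every list. Over the 6 lists they averaged 17.9 ± 11.02% (SD, n = 6 libraries), against 63.1 ± 14.7% for the other striatal regions, a difference of -45.3 percentage points that was lower in 6 of 6 lists. The exact sign-flip permutation p (2-sided, 64 sign patterns) was 0.0312, the smallest they can give, and 0.0938 after Benjamini-Hochberg adjustment over the 3 comparisons, so it did not pass 0.05. A single comparison at that smallest p cannot pass after this adjustment, whatever its size. The other striatal regions were defined by an interval in cortex or cerebellum, and 24444 had one in all 10 lists. How much of the lower share follows from that choice was not tested. Counting only intervals over the central 500 bases of each region gave -44.2 percentage points. The lists come from 2 animals and 3 tissues and are not fully independent.

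Against regions strong in all 8 cortical lists alone (cortex-only), which averaged 21.1 ± 5.03%, the difference was -3.21 percentage points (SD 13.6, n = 6, lower in 3 of 6 lists, exact permutation p = 0.625, adjusted 0.812). Against the 4555 regions of cerebellum alone (cerebellum-only), which averaged 19.2 ± 3.18%, it was -1.33 percentage points (SD 10.9, n = 6, lower in 4 of 6, exact permutation p = 0.812, adjusted 0.812). Neither mean difference exceeded the spread between lists, which does not show that the kinds of region are alike. Against cortex-only regions, striatum-only regions were listed more often in liver, muscle and testis of bat 1, by 1.18, 19.5 and 0.604 percentage points. In bat 3 they were listed less often in the same tissues, by -14.7, -8.02 and -17.9 percentage points. The signs did not follow the animal in this way against cerebellum-only regions, where the differences in liver, muscle and testis were 0.506, 18.5 and -1.62 percentage points in bat 1 and -3.61, -13.0 and -8.74 in bat 3. Without muscle of bat 1 the differences were -7.76 and -5.29 percentage points against cortex-only and cerebellum-only regions, with exact permutation p adjusted to 0.25 and 0.188 (n = 5).

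**Figure D4:**
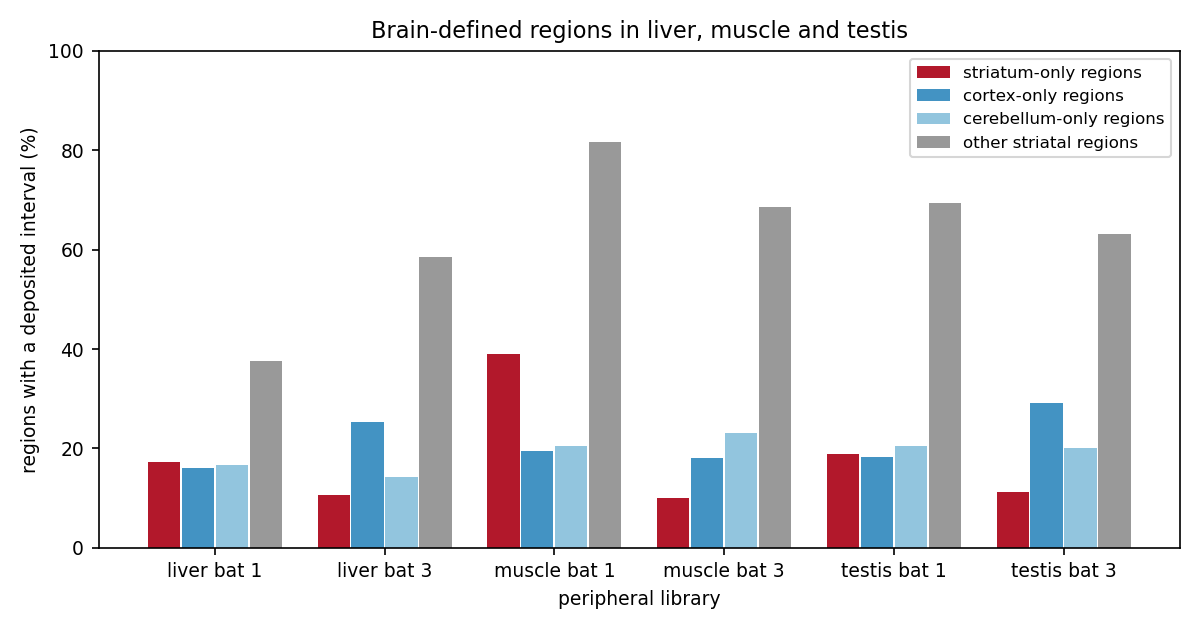
Percent of striatum-only (red), cortex-only (blue), cerebellum-only (light blue) and other striatal regions (grey) with a deposited interval (y axis) in each liver, muscle and testis library (x axis). Muscle of bat 1 stands out at 39.1% of striatum-only regions, against 10.1 to 18.9% in the other 5 lists, while its cortex-only and cerebellum-only shares, 19.5% and 20.5%, are like those of muscle of bat 3 (18.1% and 23.1%).

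The share listed in muscle of bat 1 was higher at stronger striatal regions, both striatum-only and other. When the striatum-only regions were ordered by their weakest striatal rank and divided into 5 groups of nearly equal size, intervals in that list were present at 65.7, 44.6, 33.5, 27.1 and 24.4% of them, strongest group first. The other striatal regions in the same ranges of rank were present there at 94.1, 79.4, 71.8, 65.6 and 61.8%. Muscle of bat 3 had 10.7, 9.63, 11.2, 9.80 and 9.27% of the striatum-only regions, with no such order, against 77.8, 63.0, 59.3, 56.2 and 52.9% of the others. A share that falls with striatal rank was thus no mark of the striatum-only regions, since the other regions had one in all 6 lists. Testis and liver of bat 1 were highest in the strongest group too, at 27.4% and 24.4%, against 14.97% and 13.2% in the weakest. In bat 3, testis had 12.8% in the strongest group and 11.2% in the weakest, and liver 13.5% and 10.2%. The other regions had 75.6% and 44.0% in testis of bat 3 and 71.9% and 37.1% in liver of bat 3. All 10 strongest regions had an interval in muscle of bat 1, 9 of them strong, while 2 had one in muscle of bat 3, neither of them strong.

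**Figure D5:**
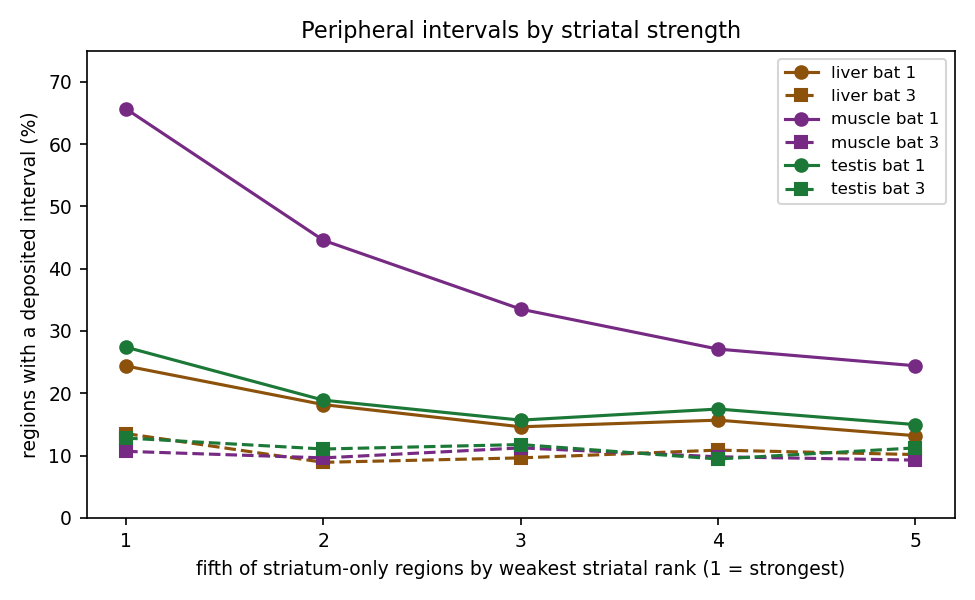
Percent of striatum-only regions with a deposited interval in each peripheral list (y axis; solid lines, bat 1; dashed lines, bat 3) by group of striatal strength, 1 strongest to 5 weakest (x axis). The line of muscle of bat 1 is highest at the strongest group (65.7%) and lowest at the weakest (24.4%), while those of bat 3 stay between 8.91% and 13.5%.

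Summits in muscle of bat 1 often lay close to striatal summits, as they did at the other striatal regions. At 674 of the 1096 regions, or 61.5%, its main summit was within 50 bases of a striatal summit, with a median distance of 32 bases. In muscle of bat 3 this held for 22.9% of 284, with a median of 268.5 bases. In testis it was 34.7% in bat 1 and 11.7% in bat 3, and in liver 18.2% in bat 1 and 13.4% in bat 3. At the other striatal regions the shares were 76.0% in muscle of bat 1 and 70.5% in muscle of bat 3, 75.1% and 68.8% in testis of bats 1 and 3, and 36.2% and 65.8% in liver of bats 1 and 3. In muscle of bat 1 the median fold over the 1096 regions was 2.602 and the highest 7.29, against a median of 2.47 for the whole list. When the regions were defined from the brain of bat 3 alone, 39.3% were in muscle of bat 1, and when defined from the brain of bat 1 alone, 34.6%, against 10.99% and 9.89% in muscle of bat 3. The cause of the difference between the muscles was not tested.

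Library indices, the short tags that assign reads to a library after joint sequencing, also differed between the animals. By the names the depositors gave the lists, all 20 libraries ran on 1 lane with 2 indices each, and no other library had the same pair of indices as a peripheral one. Muscle of bat 1 had an index in common with each of 3 striatal libraries, as did testis of bat 1, and liver of bat 1 with each of 2. Each peripheral library of bat 1 also had an index in common with 1 cortical library. No peripheral library of bat 3 had an index in common with a striatal or cortical library. Cerebellum of bat 1 also had an index in common with all 3 peripheral libraries of bat 1, and cerebellum of bat 3 with muscle and testis of bat 3, so only liver of bat 3 had none in common with a cerebellar library. Cerebellum-only regions were listed at 16.7% in liver of bat 1 and 14.2% in liver of bat 3. Cortex-only regions were listed at 16.0, 19.5 and 18.3% in liver, muscle and testis of bat 1. In bat 3 their shares were 25.3, 18.1 and 29.1%. The part of the shared indices in these shares was not tested.

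A few striatum-only regions were also strong in a peripheral tissue of both animals. In muscle the leading one lay on NW_023416295.1, bases 102748716 to 102749794, with 7.29- and 12.2-fold in muscle of bats 1 and 3, beside 20.7- and 19.02-fold in caudate of bats 1 and 3 and 17.8- and 12.5-fold in putamen. It had no interval in liver or testis. The next, on NW_023416284.1 at bases 41462934 to 41463941, had 5.88- and 11.99-fold in muscle, 14.9- and 18.9-fold in caudate and 14.2- and 11.05-fold in putamen. At both regions putamen of bat 3 was the weakest of the 4 striatal lists.

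The remaining ones of the 5 leading muscle regions had lower folds in muscle of bat 1. On NW_023416306.1, bases 130812296 to 130813359, folds were 5.58 and 5.34 in muscle of bats 1 and 3. On NW_023416308.1, bases 66229481 to 66230488, they were 4.60 and 9.61, and on NW_023416289.1, bases 11322949 to 11324178, they were 3.93 and 8.52. None of these 5 was strong in liver or testis.

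In testis the leading region lay on NW_023416288.1, bases 35581890 to 35583736, with 3.58- and 4.75-fold in testis of bats 1 and 3, beside 6.53- and 6.51-fold in caudate and 8.32- and 5.06-fold in putamen. That region was also strong in liver of bat 3, at 3.17-fold. A second, on NW_023416291.1 at bases 26391629 to 26392700, had 5.72- and 4.71-fold in testis. One more, on NW_023416287.1, bases 45659780 to 45660289, was 510 bases wide and had the highest testis fold of bat 1 at any striatum-only region, 7.36, beside 5.04 in bat 3. Over the 5 leading testis regions the weakest striatal ranks were 31024 to 45628, against 19513 to 47269 over the 5 leading muscle regions.

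In liver 2 regions were strong in both animals, at folds near those of strong intervals at large. The median fold of all strong intervals was 2.23 in liver of bat 1 and 3.51 in liver of bat 3. One, on NW_023416284.1, bases 83679537 to 83681050, had 2.30- and 3.25-fold in liver of bats 1 and 3. It also had an interval, not a strong one, in muscle of bat 1 and in testis of both animals. The other, on NW_023416287.1, bases 33753097 to 33754049, had 2.23- and 3.47-fold in liver, beside 16.8- and 19.9-fold in caudate and 15.5- and 13.2-fold in putamen, and was in no muscle or testis list. Regions led by caudate and regions led by putamen were listed in the periphery at shares that varied by library. In muscle of bat 1 it was 38.6% of the 1208 regions led by caudate and 35.6% of the 222 led by putamen, and in muscle of bat 3 it was 11.3% and 8.11%. In liver of bat 1 it was 15.9% of those led by caudate and 22.5% of those led by putamen, and in liver of bat 3 10.5% and 14.4%. The 1376 regions led by neither had 17.5% in liver of bat 1 and 10.1% in liver of bat 3. These differences were not tested, and the same shares over all striatal regions are not given here, so a lean of these lists in general cannot be told apart.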

How the data were processed

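ATAC-seq was done on nuclei from cryopreserved tissue, per the labels' protocols. Per the submitters' processing notes, Bowtie2 and MACS2 were among the tools. The sources used here name no genome build. The authors deposited 1 narrowPeak list per library, so animals were not pooled, with at most 300000 rows, a limit that 15 of the 20 lists reached. Each deposited row gives a fold (the ratio of the peak to its background), a -log10 p, a -log10 q (not used) and a summit; intervals were ranked by -log10 p within a list. RNA files were not used.

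Rows with the same interval were joined, with the highest fold and -log10 p kept. Overlap means at least 1 base, and book-ended intervals were merged. Coordinates count from 1. Computing used Python 3.11.15, numpy 2.4.6, pandas 2.3.3 and SciPy 1.17.1. Shares in the 6 peripheral lists were compared within each list by an exact sign-flip permutation test with Benjamini-Hochberg adjustment over 3 comparisons. No depth goes with the lists, and intervals on shares cover counting error only. The search found all regions planted in simulated lists. Alternatives were other limits, rules of absence, overlaps, a 500-base window and left-out libraries. The regions given by position were chosen by rank, except where stated. The members and lists were chosen with earlier results of these data known. Gene lists, promoters and motifs were planned but not run, since the gene table of assembly GCF_014176215.1 places none of its 36769 genes on a scaffold and no genome was used. The animals pair the libraries, since each gave every tissue.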

Additional observations from a re-analysis of the deposited data

Results flagged for a closer look

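Muscle of bat 1 lay far above the other 5 peripheral libraries in the share of striatum-only regions with an interval, at 39.1%, against 10.1 to 18.9%. It also lay far above them in the share with a strong interval, at 10.05%, against 1.28 to 3.96%. The 6 libraries are of 3 tissues, 15 groups of values were looked at in this way, and chance marks about 1 group in 20. This library shared an index with 3 striatal libraries, as did testis of bat 1, at 18.9%, while liver of bat 1, at 17.2%, shared one with 2. The part of the shared indices in these shares was not tested.

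The difference between striatum-only and cortex-only regions had opposite signs in the animals: it averaged 7.10 percentage points over liver, muscle and testis of bat 1 and -13.5 percentage points over those of bat 3, with all 3 tissues of an animal on the same side. Muscle carries the mean of bat 1: the differences there were 1.18 in liver, 19.5 in muscle and 0.604 in testis, and 0.892 on average without muscle. This difference between the animals was not tested, and with 3 tissues each its source cannot be told apart from the libraries.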

How the results depend on the processing

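The number of striatum-only regions depended on the limits: it was 719 with the 25000 strongest intervals and 9040 with the 100000 strongest, 8543 where only a strong interval in cortex or cerebellum counted as present, and 5217 where one of the 100000 strongest did, against 2806. Asking for 50% of the region to be covered gave 2666 and ranking by fold 3105, and the last overlapped 2334 of the 2806. Without 1 animal or 1 striatal library it was 2884 to 4681, highest without bat 3. The lower share in peripheral lists than at other striatal regions kept its sign in all 15 alternatives (-52.8 to -37.8 percentage points). The differences from cortex-only and cerebellum-only regions did not: the first was 0.116 percentage points with strong peripheral intervals only, and the second 2.04 with the 25000 strongest brain intervals. Without 1 library or animal the first ran from -13.5 to 7.10 and the second from -8.45 to 5.80, both positive without bat 3, and the second also without muscle (1.01) or testis (0.155) of bat 3. The p-values of many of these alternatives say nothing of stability, since the smallest that sign flips allow is 0.0625 with 5 libraries and 0.25 with 3. With the animal as a replicate block, the median paired rank difference, caudate minus putamen, averaged -4620 over the animals. The difference of library medians, a separate measure, was -5869 with both animals, -10434 without bat 1 and -1305 without bat 3. The share in muscle of bat 1 ranged from 22.2% with the 100000 strongest intervals to 61.1% with the 25000 strongest, and that in muscle of bat 3 from 8.75 to 18.9%. Lookups by one animal's brain, lists limited to 100000 intervals, and the omission of putamen of bat 3 were chosen after the data were seen. Promoter and gene alternatives were not run.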
